A study of Mus musculus with 7 samples.

Results

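A set of 9 genes that mark bone-forming cells was followed in arthritic mouse ankles: the transcription factors Runx2 and Sp7, the mineralisation enzyme Alpl, and the matrix or membrane genes Ibsp, Spp1, Sparc, Bglap, Bglap2 and Ifitm5. They were chosen by symbol through their Entrez numbers, and all 9 of 9 were found among the 27179 genes of the deposited table and passed a filter, an average of 1 FPKM or more over the 7 libraries, along with 13418 genes in all. FPKM counts sequenced fragments per unit of exon length and of library size, and each library held between 27465276 and 31118975 assigned reads. Every ankle was from the DBA1 strain and had collagen-induced arthritis, in which mice immunised with cartilage collagen develop inflamed joints and eroded bone. A lipid carrier (lipoplex) was given intra-articularly, and it held either miR-17-5p mimic (n = 4, replicates 1, 2, 4 and 5) or an irrelevant control microRNA (n = 3, replicates 2, 3 and 5). The labels used here give no age, sex, dose or time after injection. They do not say if each ankle was from its own mouse, and the p-values therefore reflect the variation among these libraries, which may be technical.

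Osteoblasts arise from mesenchymal precursors under Runx2, which commits cells to the lineage, and then Sp7 (osterix), which acts after it. Maturing osteoblasts lay down a matrix of type I collagen, to which Sparc (osteonectin), Ibsp (bone sialoprotein) and Spp1 (osteopontin) bind, while Alpl, the tissue-nonspecific alkaline phosphatase, clears the mineralisation inhibitor pyrophosphate. Bglap and Bglap2 encode osteocalcin, a late product of mature osteoblasts that serves as a serum marker of bone formation, and Ifitm5 encodes a membrane protein of mineralising osteoblasts. In inflammatory arthritis, bone is lost to osteoclasts while osteoblast maturation in the inflamed joint is impaired.

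The microRNA that was delivered is shown first, because its seed decides which messages it can pair with. The mature mouse sequence (RefSeq, GRCm38.p6, chr14:115043684-115043706, plus strand) has its seed, bases 2 to 8, in capitals.
mmu-miR-17-5p: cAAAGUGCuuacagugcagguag
A match to the seed (GCACTTT, or CACTTTA with an A opposite base 1) was looked for in 1 annotated 3 prime UTR per gene, the longest. Of the 9 genes, 1 held a match, against 21.4% of the 12489 tested genes with such a UTR. That gene was Spp1, with the match at base 197 of a UTR of 432 bases on the plus strand of chromosome 5, shown in capitals with its flanks.
Spp1 site: aaccaaaagcttctGCACTTTgcttctg
The UTRs of Runx2, of 3904 bases, and Sp7, of 1531 bases, held no match, and those of Bglap and Bglap2, of 134 bases each, held none either. A match is a description of the letters and not evidence of pairing.

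The osteocalcin genes lie 4795 bases apart on the minus strand of chromosome 3 (mm10, Bglap at 88383495 to 88384464 and Bglap2 at 88377736 to 88378699). Their coding sequences are shown because the largest differences reported here were at this pair. They come from GENCODE transcripts of the C57BL/6J reference, without the stop codon, and capitals mark the bases that differ between them.
Bglap coding: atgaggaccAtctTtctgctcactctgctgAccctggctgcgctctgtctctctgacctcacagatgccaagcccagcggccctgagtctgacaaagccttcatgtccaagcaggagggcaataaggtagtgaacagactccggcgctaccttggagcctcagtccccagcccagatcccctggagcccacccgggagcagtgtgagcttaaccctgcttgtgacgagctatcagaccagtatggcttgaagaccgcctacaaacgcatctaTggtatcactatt
Bglap2 coding: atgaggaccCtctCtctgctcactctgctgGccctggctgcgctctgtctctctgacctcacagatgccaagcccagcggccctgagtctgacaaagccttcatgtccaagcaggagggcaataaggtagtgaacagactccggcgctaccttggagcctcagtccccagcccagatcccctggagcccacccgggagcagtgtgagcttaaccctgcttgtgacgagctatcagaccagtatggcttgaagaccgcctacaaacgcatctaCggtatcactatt
The 285 bases differed at 4 positions, an identity of 98.6%, with 241 bases in a row the same. Of all windows of 50 bases in the Bglap transcript, 74.7% also occurred in the Bglap2 transcript. The sources used here do not say how the counting treated reads that match both genes. The values of Bglap and Bglap2 are uncertain as separate genes and are not independent of each other. The neighbouring Bglap3, a related gene expressed mainly outside bone, stood between 0.0531 and 0.507 FPKM over the 7 ankles and was below the filter.

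Levels per length spanned a wide range and kept nearly the same order in every ankle. Sparc ranked 2 or 3 among all genes in each library, at 6034 ± 410 FPKM in mimic ankles (SD, n = 4) and 4976 ± 185 FPKM in control ankles (SD, n = 3). Spp1 and Ibsp came next, Alpl, Bglap2 and Bglap stood close to one another in most ankles, and Ifitm5, Sp7 and Runx2 followed. Spp1 exceeded Ibsp in 6 of 7 ankles, the exception being mimic replicate 2, so this pair was not in the same order throughout. In control replicate 5 the osteocalcin genes fell in the order below Ifitm5, and Bglap also below Sp7.

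All 9 genes had a higher mean in the mimic ankles. Their log2 fold changes had a median of 0.28, beside a higher mean at 48.3% of the 13418 genes tested and a median of -0.0063 over them. None of the 9 passed the test, limma on log2(FPKM + 0.5) with p-values adjusted over all genes by Benjamini and Hochberg at 0.05, under which 0% of genes were called higher and 0% lower. At an unadjusted p under 0.05 with limma, 2 of the 9 were higher and 0 lower, against 7.48% of tested genes higher and 10.1% lower. These 2 were Bglap and Bglap2, whose values are not independent of each other. With limma-voom on reads recovered from the FPKM values, 0 genes were called likewise. At an unadjusted p under 0.05 limma-voom gave 3 of the 9, Sparc and the osteocalcin pair. It gave 2362 of the 13418 genes tested, in both directions. The groups did not overlap at 3 of the 9, Bglap, Bglap2 and Sparc, each higher in every mimic ankle than in any control ankle, which was so at 6.48% of genes tested, while 8.84% were lower in every mimic ankle. Because these are whole ankles, more cells of a type and more transcript per cell cannot be told apart.

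**Figure D1:**
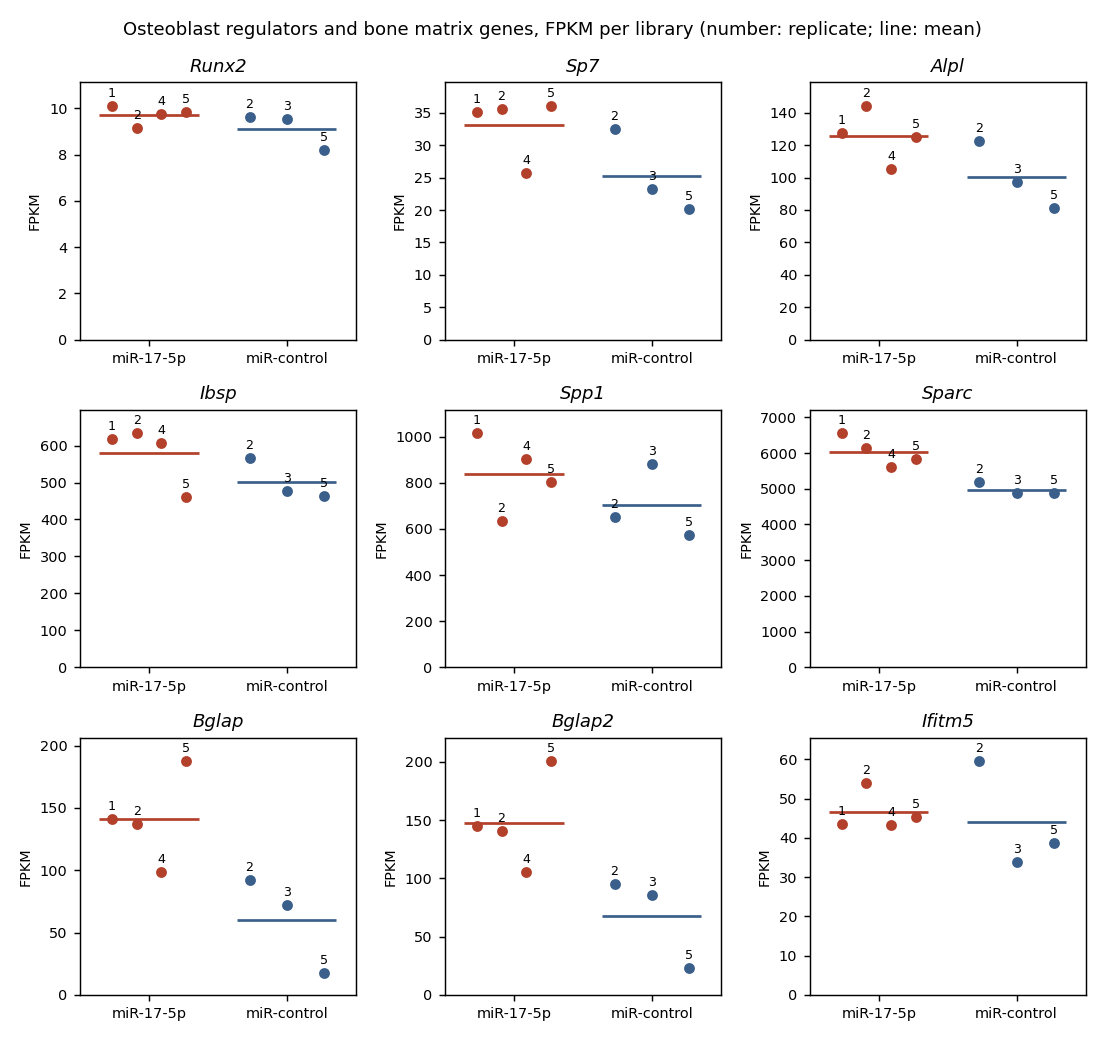
FPKM (y axis, from 0) of each of the 9 genes in the 4 miR-17-5p ankles, left, and the 3 miR-control ankles, right. Each point is a library with its replicate number and each line a group mean. The groups are separate at Bglap, Bglap2 and Sparc and overlap at the other 6, and control replicate 5 is the lowest point at Runx2, Sp7, Alpl, Spp1, Bglap and Bglap2.

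Runx2 (chromosome 17, 44604001 to 44814797) stood at 10.1, 9.17, 9.75 and 9.83 FPKM in mimic replicates 1, 2, 4 and 5, against 9.65, 9.53 and 8.19 FPKM in control replicates 2, 3 and 5. Control replicate 5 was the low one, and the other 6 ankles lay within 1 FPKM of each other. Its log2 fold change was 0.089 (SE 0.073, 95% confidence interval -0.083 to 0.26, limma adjusted p = 0.537), an interval that reaches from a fold of 0.944 to 1.20. For Runx2 this value was 0.017 without control replicate 5, 0.050 with the mean of the muscle markers as a covariate and 0.055 with that of the erythroid markers. It was 0.13 without control replicate 2. Sp7 (chromosome 15, 102357177 to 102366271) stood at 35.2, 35.6, 25.8 and 36.1 FPKM in the mimic ankles, against 32.5, 23.3 and 20.1 FPKM in the control ankles. Mimic replicate 4 lay among the controls and control replicate 2 came close to the other mimic ankles, so the groups overlapped. The log2 fold change of Sp7 was 0.40 (SE 0.18, limma adjusted p = 0.307), and it was 0.25 without control replicate 5 and 0.23 with the muscle covariate. It rose to 0.59 without control replicate 2 and to 0.50 with the erythroid covariate.

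Alpl (chromosome 4, 137741732 to 137796377) followed Sp7 closely from ankle to ankle. It stood at 128, 144, 105 and 125 FPKM in the mimic ankles, against 122, 97.3 and 81.3 FPKM in the control ankles. As with Sp7, mimic replicate 4 was the lowest of its group and control replicate 2 the highest of its own, and the groups overlapped. The Alpl to Sp7 ratio stayed between 3.46 and 4.09 in mimic ankles and between 3.77 and 4.18 in control ankles. The log2 fold change of Alpl was 0.33 (SE 0.16, limma adjusted p = 0.317), or 0.19 without control replicate 5 and 0.17 with the muscle covariate. It rose to 0.49 without control replicate 2 and was 0.35 with the erythroid covariate.

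Ibsp and Spp1 belong to a cluster of acidic matrix genes on chromosome 5, with 124 kb between them. Ibsp, which nucleates mineral (104299287 to 104311472), stood at 619, 633, 606 and 460 FPKM in the mimic ankles, against 566, 477 and 462 FPKM in the control ankles. Mimic replicate 5, the highest ankle for osteocalcin, was the lowest of all 7 for Ibsp. The log2 fold change of Ibsp was 0.20 (SE 0.14, limma adjusted p = 0.469), and it was 0.034 with the erythroid covariate and 0.31 without mimic replicate 5. Spp1, which also comes from macrophages and osteoclasts (104435111 to 104441053), stood at 1015, 633, 905 and 805 FPKM in the mimic ankles, against 652, 881 and 575 FPKM in the control ankles. High and low ankles were found in both groups, and the order was unlike that of the other matrix genes, with mimic replicate 2 low and control replicate 3 high. For Spp1 the log2 fold change was 0.26 (SE 0.20, limma adjusted p = 0.517). The erythroid covariate brought it to 0.093, while leaving out control replicate 5 gave 0.13, and leaving out mimic replicate 1 gave 0.16. With control replicate 3 left out it was 0.43, and with mimic replicate 2 left out 0.39, so the value of Spp1 moved either way with the library left out.

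Sparc, a collagen-binding glycoprotein of bone that fibroblasts and endothelial cells also make (chromosome 11, 55394501 to 55420080), stood at 6552, 6151, 5614 and 5820 FPKM in the mimic ankles, against 5189, 4867 and 4872 FPKM in the control ankles. The groups did not overlap, and the fold between the means was 1.21. The log2 fold change was 0.28 (SE 0.16, limma adjusted p = 0.381), and the adjusted p was 0.185 without the mean-variance trend. With quantile normalization, which gives genes of equal rank equal values, the log2 fold change was 0.019. Sparc kept nearly the same top rank in every library, so that scaling could hardly show a difference at it. Per library, the Sparc to Col1a1 ratio was between 0.773 and 0.878 in mimic ankles and between 0.711 and 0.778 in control ankles.

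Of the 9 genes, the osteocalcin pair differed most. Bglap stood at 141, 137, 98.8 and 188 FPKM in mimic replicates 1, 2, 4 and 5, against 91.9, 71.9 and 17.2 FPKM in control replicates 2, 3 and 5. Every mimic ankle was above every control ankle, and control replicate 5 stood far below the other 6. The value of control replicate 5 rested on 330 reads. An exact Poisson interval that covers counting error only gave 15.4 to 19.1 FPKM for it, so counting error did not reach the next ankle. The nearest ankles across the groups were mimic replicate 4 and control replicate 2. Their Bglap intervals overlapped, at 94.3 to 103.5 and 87.6 to 96.4 FPKM. For Bglap2 the intervals of these ankles were 100.3 to 111.2 and 89.8 to 100.2 FPKM, which did not overlap. The means were 141 ± 36.4 FPKM in mimic ankles (SD, n = 4) and 60.3 ± 38.7 FPKM in control ankles (SD, n = 3), and the log2 fold change was 1.49 (SE 0.55, 95% confidence interval 0.22 to 2.77, limma unadjusted p = 0.0276, adjusted p = 0.240).

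Bglap2 stood at 145, 140, 106 and 201 FPKM in the mimic ankles, against 94.9, 85.6 and 23.2 FPKM in the control ankles, in the same order of ankles as Bglap. Its log2 fold change was 1.32 (SE 0.48, limma adjusted p = 0.241). The Bglap to Bglap2 ratio lay between 0.935 and 0.976 in mimic ankles and between 0.739 and 0.969 in control ankles, with its lowest value in control replicate 5. A log2 fold change above 1, as at both osteocalcin genes, was reached by 0.842% of genes tested. Without control replicate 5 the log2 fold changes were 0.76 for Bglap and 0.67 for Bglap2, and with the muscle covariate 0.86 and 0.77. They rose to 1.95 and 1.68 without control replicate 2 and to 1.77 and 1.60 without control replicate 3. With the erythroid covariate they were 1.45 and 1.32.

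Relative to Sp7, osteocalcin was also higher in every mimic ankle. The Bglap to Sp7 ratio of FPKM was between 3.83 and 5.20 in mimic ankles, against 2.83, 3.09 and 0.854 in control replicates 2, 3 and 5. The other ratios to Sp7 overlapped between the groups. For Ibsp the ratio was between 12.7 and 23.5 in mimic ankles and between 17.5 and 23.0 in control ankles, and for Ifitm5 between 1.24 and 1.68 in mimic ankles and between 1.45 and 1.93 in control ankles. These ratios were chosen with the values known and carry no test.

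Ifitm5, whose human counterpart is mutated in a form of brittle bone disease (chromosome 7, 140948962 to 140950239), stood at 43.6, 54.0, 43.3 and 45.3 FPKM in the mimic ankles, against 59.6, 33.7 and 38.7 FPKM in the control ankles. Both the highest and the lowest ankle were controls. The log2 fold change was 0.12 (SE 0.19, 95% confidence interval -0.32 to 0.56, limma adjusted p = 0.751), and it turned to -0.051 without control replicate 3 and to -0.055 with the muscle covariate. It was 0.35 without control replicate 2, 0.047 without control replicate 5 and 0.044 without mimic replicate 2. Its antiviral relatives on the same chromosome had log2 fold changes of -1.10 (Ifitm1, SE 0.21), -0.29 (Ifitm2, SE 0.11) and 0.26 (Ifitm3, SE 0.19), at limma adjusted p of 0.173, 0.251 and 0.486.

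**Figure D2:**
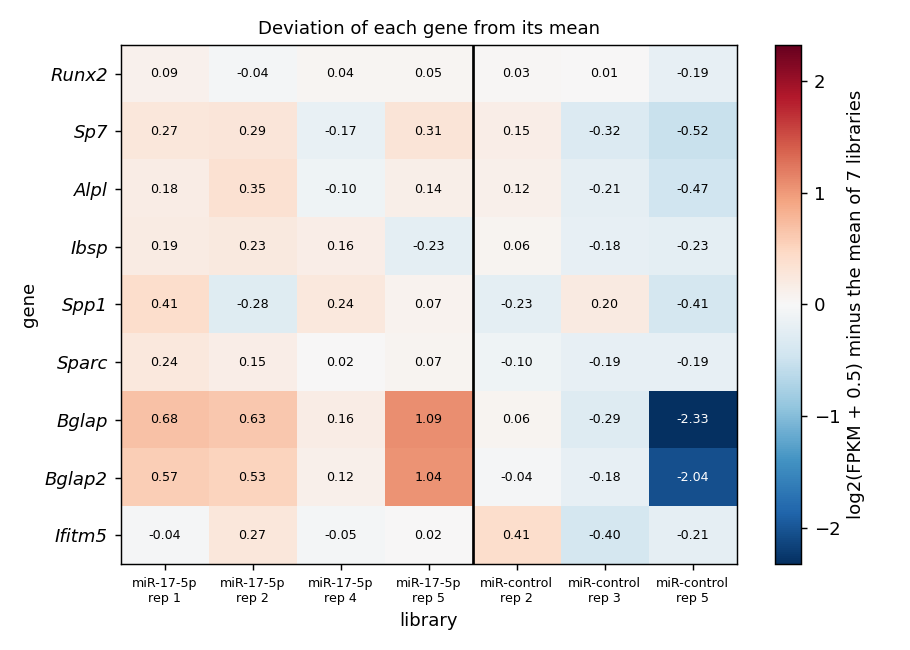
Each cell gives log2(FPKM + 0.5) of a gene (rows) in a library (columns, the 4 miR-17-5p ankles left of the line and the 3 miR-control ankles right of it) minus the gene's mean over the 7 libraries, red above and blue below. The deepest cells are Bglap and Bglap2 in control replicate 5, at -2.33 and -2.04, while Runx2 stays between -0.19 and 0.09.

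The 9 genes did not move as a block across the ankles. Control replicate 5 was the lowest library for 6 of them, control replicate 3 for Ifitm5 and Sparc, and mimic replicate 5 for Ibsp. The highest library was mimic replicate 1 for Runx2, Spp1 and Sparc, mimic replicate 2 for Alpl and Ibsp, mimic replicate 5 for Sp7, Bglap and Bglap2, and control replicate 2 for Ifitm5. The median deviation of the 9 genes from their means was -0.41 in control replicate 5 and 0.27 in mimic replicate 2, on the log2 scale.

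Upstream windows were compared because Runx2 binds a known core motif in the osteocalcin promoter. RefSeq windows (GRCm38.p6) of 250 bases before to 50 after the annotated start were available for 7 of the 9 genes. The core TGTGGT, or ACCACA on the other strand, occurred in 4 of the 9 windows of these genes, against 16.8% of all 32851 windows. The 4 were 1 each of Bglap, Spp1, Sparc and Runx2. The windows of Bglap (chr3:88384417-88384716, minus strand) and Spp1 (chr5:104434861-104435160, plus strand) hold it before the start, with its first base at 132 and 128 bases upstream, in capitals. These are 2 of the windows with a match, chosen for display. The Runx2 window holds 3 matches, 1 before the start and 2 after it, and the match of Sparc lies after the start.
Bglap window: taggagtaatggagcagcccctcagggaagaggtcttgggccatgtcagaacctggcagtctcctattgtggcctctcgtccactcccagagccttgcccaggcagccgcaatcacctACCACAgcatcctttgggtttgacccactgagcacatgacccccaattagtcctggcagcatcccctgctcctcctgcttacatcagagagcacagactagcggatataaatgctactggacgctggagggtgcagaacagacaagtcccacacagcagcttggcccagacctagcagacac
Spp1 window: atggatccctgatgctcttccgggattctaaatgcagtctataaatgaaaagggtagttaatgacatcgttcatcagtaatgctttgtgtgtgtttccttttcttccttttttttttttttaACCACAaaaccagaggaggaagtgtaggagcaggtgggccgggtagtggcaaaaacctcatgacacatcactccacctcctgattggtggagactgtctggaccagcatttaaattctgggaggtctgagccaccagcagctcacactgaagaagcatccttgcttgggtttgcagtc
These are matches of letters and not measured sites. Among the 4 genes with the core, the mimic and control ankles were separate at Bglap and Sparc and overlapped at Spp1 and Runx2.

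Other regulators of the osteoblast lineage likewise had no called change. Of 11 listed genes 10 were tested, 7 had a higher and 3 a lower mean in mimic ankles, the median log2 fold change was 0.16, and none passed limma, while 2 were higher and 0 lower at an unadjusted p under 0.05, against 7.48% and 10.1% of genes tested. The groups did not overlap at 2 of the 10, both higher, and 0 lower, against 6.48% and 8.84% of genes tested. These were the homeobox factors Dlx5 and Dlx3, which act in osteoblast differentiation. Dlx5 stood at 11.9 ± 1.89 FPKM in mimic ankles and 8.23 ± 1.15 FPKM in control ankles (log2 fold change 0.50, SE 0.14, limma adjusted p = 0.183). Dlx3 stood at 8.99 ± 1.30 and Dlx6 at 3.84 ± 0.46 FPKM in mimic ankles, against 6.52 ± 1.38 and 2.96 ± 0.79 FPKM in control ankles. Dlx3 had a log2 fold change of 0.45, or 0.27 without control replicate 5. That of Dlx6 was 0.35, or 0.18 without the same ankle and 0.17 with the muscle covariate. Without control replicate 2, Dlx3 and Dlx6 rose to 0.55 and 0.51.

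Among other matrix and mineralisation genes, 15 of 16 were tested, 9 with a higher and 6 with a lower mean, a median of 0.14 and none past the threshold, while at an unadjusted p under 0.05 3 were higher and 1 lower with limma, against 7.48% and 10.1% of genes tested. Omd (osteomodulin), a keratan sulphate proteoglycan of mineralised matrix, stood at 27.2 ± 1.59 FPKM in mimic ankles and 17.2 ± 2.70 FPKM in control ankles. Its log2 fold change was 0.65 (SE 0.10, limma adjusted p = 0.173). It passed without control replicate 2, at 0.77 (limma adjusted p = 0.0253), as did 2.36% of genes in that fit. Mgp, an inhibitor of calcification made by cartilage and vessels, had a log2 fold change of 0.80 (SE 0.28) with overlapping groups, or 0.53 with the erythroid covariate. Sgms2, a sphingomyelin synthase of bone, had 0.32 (SE 0.11), or 0.20 with the muscle covariate and 0.43 without control replicate 2. The groups did not overlap at 5 of the 15 higher in mimic ankles and 1 lower, against 6.48% and 8.84% of genes tested. Omd and Sgms2 were among the 5. The other genes were named after their values were seen because their groups did not overlap. Col1a1, Col1a2 and Serpinf1 were higher in every mimic ankle, with log2 fold changes of 0.14, 0.23 and 0.16. P3h1, a collagen prolyl hydroxylase, was lower, with -0.17. With the erythroid covariate P3h1 had -0.11, leaving out control replicate 5 gave -0.096, and leaving out control replicate 3 gave -0.22. With quantile normalization Col1a1 was at 0 and Col1a2 at -0.019. That scaling sets values by rank, and these genes stayed at the top of every library. It could therefore hardly show a difference at them.

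Osteocytes are osteoblasts buried in the matrix, and 7 of 8 of their genes were tested, 6 with a higher and 1 with a lower mean, a median of 0.14, no separate groups and 0 past the limma threshold, adjusted or unadjusted. Phex, an endopeptidase that restrains phosphate loss, stood at 4.40 ± 1.02 FPKM in mimic ankles and 2.77 ± 1.52 FPKM in control ankles. Sost, the Wnt inhibitor sclerostin, stood at 2.40 ± 1.62 FPKM in mimic ankles and 1.04 ± 0.83 FPKM in control ankles. Ank, a pyrophosphate transporter, stood at 38.8 ± 1.82 FPKM in mimic ankles and 36.1 ± 3.37 FPKM in control ankles. The log2 fold changes of Phex, Sost and Ank were 0.70, 0.85 and 0.10, and without control replicate 5 they were 0.22, 0.39 and 0.036. Phex and Sost were at 0.29 and 0.52 with the muscle covariate, and Sost was at 1.30 with limma-voom. Ank was at 0.032 with the erythroid covariate. When control replicate 3 was left out, Phex was at 0.97 and Ank at 0.17. Dmp1, a matrix gene of osteocytes, had its lowest value, 12.6 FPKM, in control replicate 5 as osteocalcin did, and so did Phex, Mepe, Sost, Ank and Slc20a2.

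**Figure D3:**
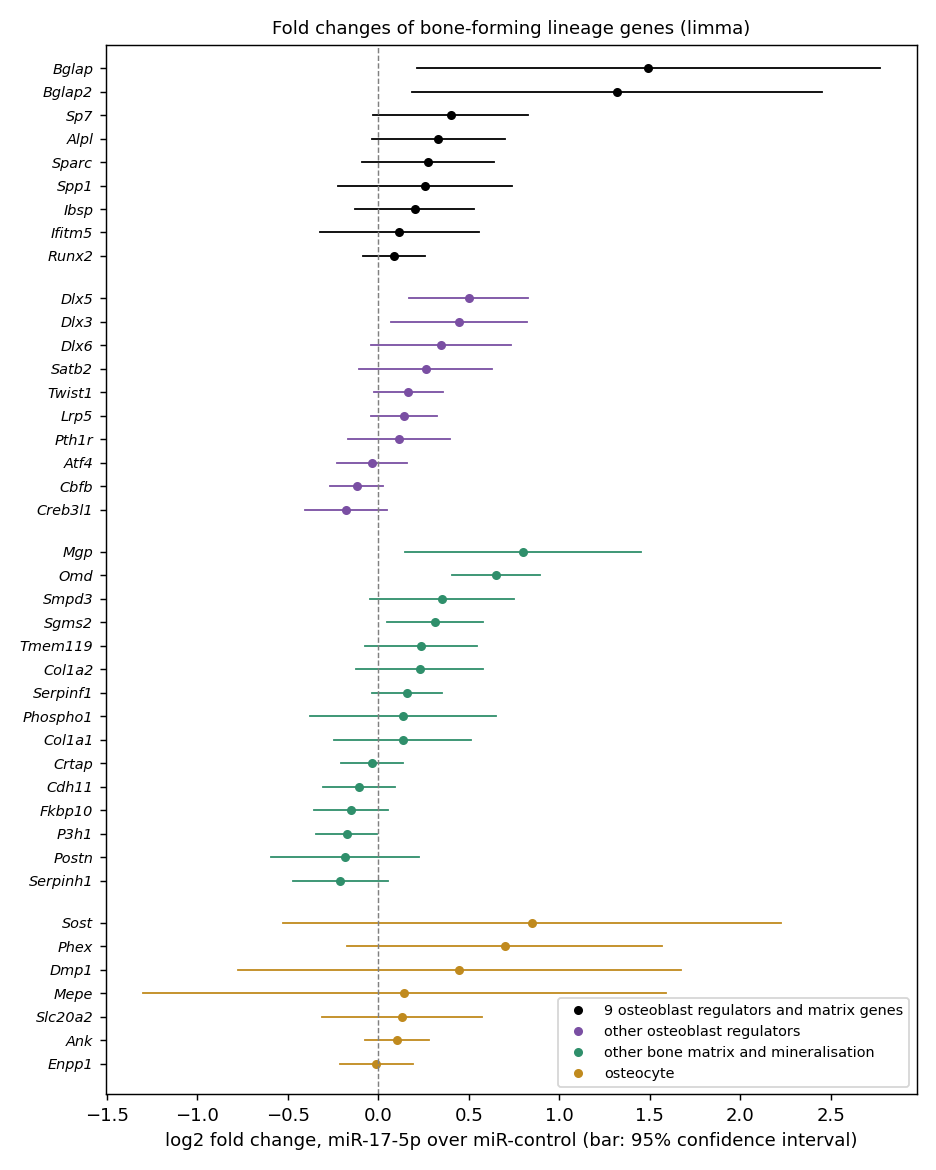
Log2 fold changes, miR-17-5p over miR-control (x axis), of the 9 genes and of the tested genes of 3 further lists, each point with its 95% confidence interval from limma. Bglap and Bglap2 lie farthest right among the 9, at 1.49 and 1.32, with the widest intervals of the 9, and Runx2 has the narrowest.

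Genes most like the osteoblast profile were sought among 9316 other genes averaging 5 FPKM or more, by the Pearson correlation over the 7 ankles with the mean standardised level of Sp7, Ibsp, Bglap, Bglap2 and Ifitm5. The highest were Slc22a5, a carnitine transporter (r = 0.994), Fbxo21, an F-box protein (r = 0.983), Gabarapl1, an autophagy gene (r = 0.982), and Cry2, a clock repressor (r = 0.981), followed by Pcp4l1, Mras, Slc2a8, Slc49a4, Tbx2 and Crtc1, down to r = 0.974. Without control replicate 5, left out after the data were seen, these 10 had r between 0.86 and 0.992. The 7 points share library depth and tissue makeup, and r is given as a description of likeness.

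The whole ankle holds bone, cartilage, synovium, muscle, fat and marrow, and none of the marker lists had a gene at 0 in every ankle. Muscle varied widely. The sum of 5 markers ran from 1683 to 6271 FPKM in mimic ankles and from 815 to 4592 FPKM in control ankles. Control replicate 5 was the lowest of all and mimic replicate 5 the highest, the same ankles that were lowest and highest for osteocalcin. The ankles between these extremes were not in the same order. Mimic replicate 1 had a muscle sum of 1683 FPKM with Bglap at 141 FPKM. Control replicate 2 had a muscle sum of 4592 FPKM with Bglap at 91.9 FPKM. The 8 osteocyte genes summed to between 127 and 163 FPKM in mimic ankles and between 96.7 and 160 FPKM in control ankles, lowest in control replicate 5. The 4 erythroid markers ran from 7.18 to 57.3 FPKM in mimic ankles and from 5.21 to 16.8 FPKM in control ankles. The 6 chondrocyte markers ran from 99.9 to 138 FPKM in mimic ankles and from 76.2 to 105 FPKM in control ankles. Of these, 5 had a higher mean and 1, Sox9, a lower one. At an unadjusted p under 0.05 with limma, 2 were higher and 0 lower, against 7.48% and 10.1% of genes tested. Hypertrophic chondrocytes also express Ibsp and Spp1. Their 2 markers summed to between 2.94 and 8.28 FPKM in mimic ankles and between 1.01 and 4.94 FPKM in control ankles. These sums rest mostly on Col10a1, because Ihh stood between 0.238 and 0.549 FPKM over all ankles and was below the filter.

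Of the 8 osteoclast markers 7 were tested and none passed limma. At an unadjusted limma p under 0.05 all 7 were lower in mimic ankles, against 10.1% of genes tested. The sums of the 8 did not overlap, at 1754 to 1969 FPKM in mimic ankles and 2181 to 2312 FPKM in control ankles. This direction was opposite to that of the means of the 9 osteoblast genes, none of which was called. The other regulator and matrix lists held genes with means in either direction. The 6 macrophage markers ran from 394 to 501 FPKM in mimic ankles and from 498 to 551 FPKM in control ankles, and the 5 neutrophil markers from 1234 to 3148 FPKM in mimic ankles and from 2914 to 5868 FPKM in control ankles, with 2 genes of each list lower at an unadjusted p under 0.05. The sums of 5 fibroblast and 4 endothelial markers, cells that also make Sparc, overlapped. They were 4368 to 5292 and 206 to 230 FPKM in mimic ankles, against 4245 to 6182 and 196 to 228 FPKM in control ankles. Such sums rest mostly on the highest genes of a list. These were Col3a1 and Prg4 for fibroblasts, Acp5 and Ctsk for osteoclasts, S100a8 and S100a9 for neutrophils, and Fabp4 for adipocytes. The 3 adipocyte markers ran from 769 to 1069 FPKM in mimic ankles and from 474 to 781 FPKM in control ankles. All 3 were higher at an unadjusted limma p under 0.05, against 7.48% of genes tested, with none past the adjusted threshold. Their direction was that of the means of the 9 osteoblast genes. The part of tissue makeup in the osteocalcin difference was not tested beyond the covariates given above.

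**Figure D4:**
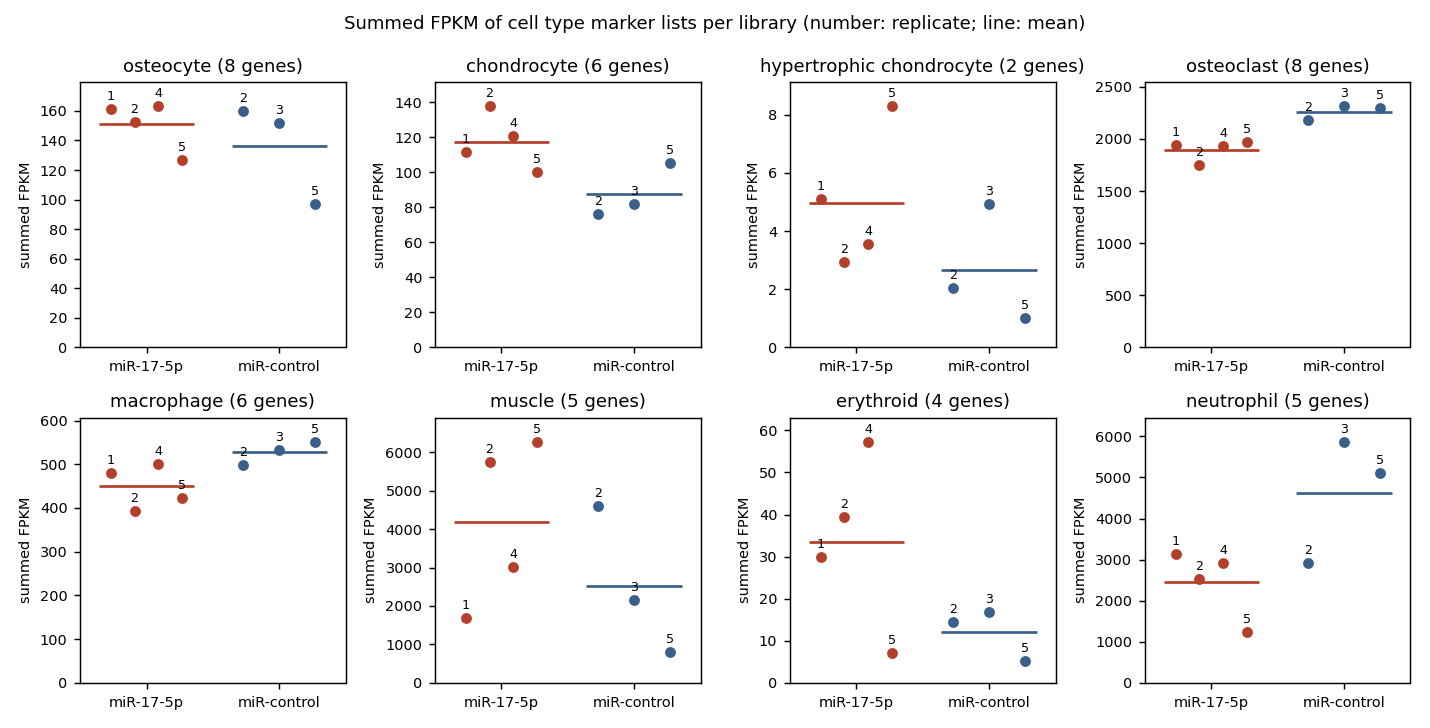
Summed FPKM (y axis, from 0) of 8 marker lists in the 4 miR-17-5p ankles, left, and the 3 miR-control ankles, right, each point a library with its replicate number and each line a group mean. Osteoclast sums are separate between the groups, at 1754 to 1969 against 2181 to 2312 FPKM, and rest mostly on Acp5 and Ctsk. Muscle sums overlap over a wide range, with control replicate 5 the lowest. Neutrophil sums rest mostly on S100a8 and S100a9.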

How the data were processed

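Whole-ankle RNA of 7 mouse ankles was, per the labels, sequenced by Illumina NextSeq. The deposited values are FPKM per gene, per the file headers and labels, with the joined exon length in bases. Tools listed without roles, per the submitters' processing notes, were STAR 2.5.2b, Subread, featureCounts, bcl2fastq 2.20 and DESeq2 1.14.1, with the builds mm10 and GRCm38. Not given in the sources used here are the annotation release, the treatment of multiply matching reads and the strand setting, and a gene therefore cannot be told apart from its antisense partner. Entrez numbers matched a RefSeq symbol (GRCm38.p6) for 25275 of 27179 genes. FPKM times length gave whole reads for 100% of values within 0.01 of a read, between 27465276 and 31118975 per library. Over 21 library pairs a chi-square of these reads was at least 17.6 per gene, so none was counted as a repeat.

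Tests used limma 3.58.1 in R 4.3.3 with eBayes moderation along a mean-variance trend. Values were log2(FPKM + 0.5) of genes averaging 1 FPKM or more, both groups, no covariate, 2-sided. Fold changes are mimic minus control and understate low genes. The pipeline was tested on simulated data. Genes and lists were chosen with earlier results of these data known. Named beside the 9 genes were up to 3 per list by smallest unadjusted p, the 10 most alike, and, after seeing values, others with separate groups and the Ifitm relatives. Alternatives were pseudocounts of 0.1 and 1, other filters, other scalings, no trend, limma-voom, the replicate block, 2 marker covariates and leaving out each library. Figures used matplotlib 3.10.9 in Python 3.11.15.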

Additional observations from a re-analysis of the deposited data

Results flagged for a closer look

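In 5 of 36 quantities checked in the 4 mimic ankles, 1 ankle stood apart from the other 3 by Dixon's ratio of gap to range. Chance alone exceeds the cutoff in about 1 group of 20. Some of the quantities are sums that hold other genes checked, and Col1a1 and Serpinf1 were named after their values were seen. That rate is therefore no benchmark for the count of 5. Sp7 stood at 25.8 FPKM in mimic replicate 4, against 35.2 to 36.1 FPKM in the other mimic ankles. Ibsp stood at 460 FPKM in mimic replicate 5, against 606 to 633 FPKM in the others. Col1a1 stood at 7055 FPKM in mimic replicate 4 and at 7464 to 7535 FPKM in the others. Serpinf1 stood at 675 FPKM in mimic replicate 1 and at 598 to 604 FPKM in the others. The osteoclast markers summed to 1754 FPKM in mimic replicate 2 and to 1935 to 1969 FPKM in the others.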

How the results depend on the processing

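None of the 9 genes passed under any of 18 alternatives, and 8 of them kept a higher mean in the mimic ankles in all of these; Ifitm5 turned to -0.055 with the muscle covariate and to -0.051 without control replicate 3. The median log2 fold change of the 9 lay between 0.19 and 0.35 when 1 library was left out and between 0.23 and 0.30 otherwise. The lowest adjusted p among them was 0.077 (Sp7, without control replicate 2). Over all genes, 14 passed with no filter on low values (4 higher and 10 lower). Leaving out 1 library gave from 0 to 317 genes, 317 without control replicate 2 and 2 without mimic replicate 5. Of the other osteoblast and matrix genes, 0 to 1 passed, the 1 being Omd without control replicate 2, at 0.77. Col1a2 turned to -0.019 with quantile normalization, which could hardly show a difference at a gene that stayed among the highest in every library. With the replicate block, whose group difference rests on the numbers 2 and 5 found in both groups, Bglap had a log2 fold change of 1.99 (limma adjusted p = 0.524), and 0 genes passed. Deviations of same-numbered ankles correlated at 0.535 for number 2 and -0.435 for number 5. Ankles of unlike number correlated as strongly, such as mimic replicate 1 with control replicate 5 (0.534) and with control replicate 2 (-0.518). These values therefore cannot decide whether the numbers are pairs, and the main fit did not take them as pairs.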
